A study of Homo sapiens with 8 samples.

Results

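The ZNF genes are the human genes whose symbols join ZNF to a number, most of which encode proteins with C2H2 zinc fingers. The 225 described here were chosen by symbol and by level: each was listed for both cell lines studied, with a mean of at least 2 in the DMSO libraries of each line, in the RPKM-type unit of the deposited values (reads per gene length and per library total). They were 225 of the 330 ZNF genes listed for both lines, and of 12715 genes listed for at least 1 line. RNA was measured by poly(A)-selected sequencing in CAL-62 and BCPAP, both human thyroid carcinoma cell lines that the labels describe as anaplastic thyroid carcinoma. The 4 groups were CAL-62 with 100 nM THZ1 for 6 h, CAL-62 with DMSO, BCPAP with 100 nM THZ1 for 6 h and BCPAP with DMSO, with 2 libraries in each. THZ1 binds CDK7 covalently and inhibits it; CDK7 sits in TFIIH and phosphorylates the tail of RNA polymerase II. DMSO is the solvent. Whether the replicates were separate cultures is not stated, and p-values then cover the spread of these libraries alone, which may be technical. Medium and serum also differed from line to line, so a difference of lines cannot be told apart from one of medium.

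In a C2H2 finger a zinc ion is held by a pair of cysteines and a pair of histidines, and tandem fingers read DNA sequence. Many ZNF proteins carry a KRAB domain, which recruits the scaffold TRIM28 (KAP1) and through it the histone H3 lysine methyltransferase SETDB1, HP1 proteins and the NuRD deacetylase complex to silence transposable elements, imprinted regions and genes. Others carry a SCAN domain, through which such proteins pair with each other. A further set with few or no classical fingers shares little but the name and works in splicing, on ribosomes or at kinetochores.

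The DMSO values that chose the genes ranged from 2.0 to 100.01 as group means in CAL-62, with a median of 5.41, and from 2.01 to 77.3 in BCPAP, with a median of 4.97. The choice kept ZNF17, ZNF724P and ZNF229 just inside, at 2.0, 2.03 and 2.03 in the line where each was lower, and left ZNF124, ZNF211 and ZNF431 just outside, at 1.99, 1.99 and 1.98. The lowest DMSO mean of any deposited gene was just above 1 in each line, while THZ1 means reached 0, and the choice adds a second floor on DMSO alone. A gene that was low under DMSO and higher under THZ1 could therefore be missed. Counts over the 225 genes are given as descriptions. Counts over all genes tested, or over genes that passed the same floors, stand beside them where these were made.

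The libraries held 16681827 to 19988647 reads in listed genes. The ZNF genes took 0.463% and 0.377% of them in the THZ1 libraries of CAL-62, against 0.793% and 0.858% in its DMSO libraries, and 0.609% and 0.472% in the THZ1 libraries of BCPAP, against 0.654% and 0.643% in its DMSO libraries. The share of reads in mitochondrially encoded genes was higher with THZ1 within each replicate number in both lines. In CAL-62 it was 10.3% and 5.45% with THZ1, against 6.26% and 3.74% with DMSO. In BCPAP it was 5.07% and 3.38% with THZ1, against 4.74% and 2.69% with DMSO. The part of this share in the ZNF result was not tested. Of the thyroid markers, PAX8 and HHEX were listed for both lines and NKX2-1 and FOXE1 for BCPAP only, while TG, TSHR and SLC5A5 were listed for neither; the epithelial markers KRT7, KRT8 and KRT18 were listed for both and KRT19 and EPCAM for CAL-62 only. The summed level of the listed epithelial markers in CAL-62 was 2277 to 2915 with THZ1 and 1360 to 1691 with DMSO, and that of PAX8 and HHEX 77.6 to 84.3 with THZ1 and 113 to 171 with DMSO; in BCPAP the sums overlapped for both lists. Their part in the ZNF result was not tested. None of 4 blood and none of 4 endothelial markers was listed, and of 4 fibroblast markers only COL1A1 was.

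In CAL-62, ZNF genes were lower with THZ1 almost throughout. A total of 52 of the 225 were called lower (limma on log2(value + 1), adjusted p under 0.05 over 11362 genes) and 0 were called higher. Over all genes tested 4.04% were called lower and 0.581% higher, and over the 9443 genes that passed the same DMSO floors 4.2% were called lower, against 23.1% of the ZNF genes. The median ZNF level was 2.29 with THZ1 and 5.41 with DMSO. The THZ1 mean was a median 44.6% of the DMSO mean over the ZNF genes and 107% over the genes past the same floors. In 126 ZNF genes the THZ1 mean was at most 50% of the DMSO mean. In how many other genes it was so was not counted. The genes past the same floors had a higher median DMSO level in CAL-62 than the ZNF genes. The comparison with them is therefore not matched for level. In bulk RNA, fewer cells that express a gene and less of its RNA per cell cannot be told apart, and the scaling of the deposited values to library totals does not show a change of total RNA.

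The pseudocount of 1 makes changes of low genes look smaller than they were. The median change of the ZNF genes in CAL-62 was -0.87 on the log2(value + 1) scale, and that of the genes past the same floors was 0.08. A total of 200 ZNF genes had a negative change and 25 a positive one, where 48.2% of all genes tested were negative. At an unadjusted p under 0.05 there were 140 ZNF genes, 139 of them lower, where 30.1% of all genes tested passed in either direction. Within replicate number 1 the median was -0.71, with 173 of the ZNF genes negative, and within replicate number 2 it was -1.14, with 207 negative. In 163 ZNF genes both THZ1 libraries lay below both DMSO libraries, where 28.1% of listed genes did, and in 6 both lay above, where 29.7% did. With the floor set on the mean of all 8 libraries in place of DMSO alone, 55 of 242 ZNF genes were called lower and 0 higher.

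The count of 52 rested on all 4 groups sharing an estimate of the spread and on both DMSO libraries of CAL-62. It was 0 when either of those was left out or when the CAL-62 libraries were fitted alone, where the smallest adjusted p of a ZNF gene was 0.0542 without replicate 1, 0.127 without replicate 2 and 0.0842 in CAL-62 alone. It was 19 when either DMSO library of BCPAP was left out and 33 without THZ1 replicate 2 of CAL-62. The median change stayed between -1.12 and -0.67 over these fits. The count also moved with the scaling and the filter. It was 83 with upper-quartile scaling, 119 with the sum of recovered reads and 163 with ribosomal protein genes as the reference. With mitochondrially encoded genes it was 34, and with a filter at a mean of 5 it was 11. In the same order, these scalings moved the median change of all genes past the same floors from 0.08 to -0.10, -0.31, -0.79 and -0.84. How many of all genes were called under each scaling was not counted, so these counts have no background beside them.

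**Figure D1:**
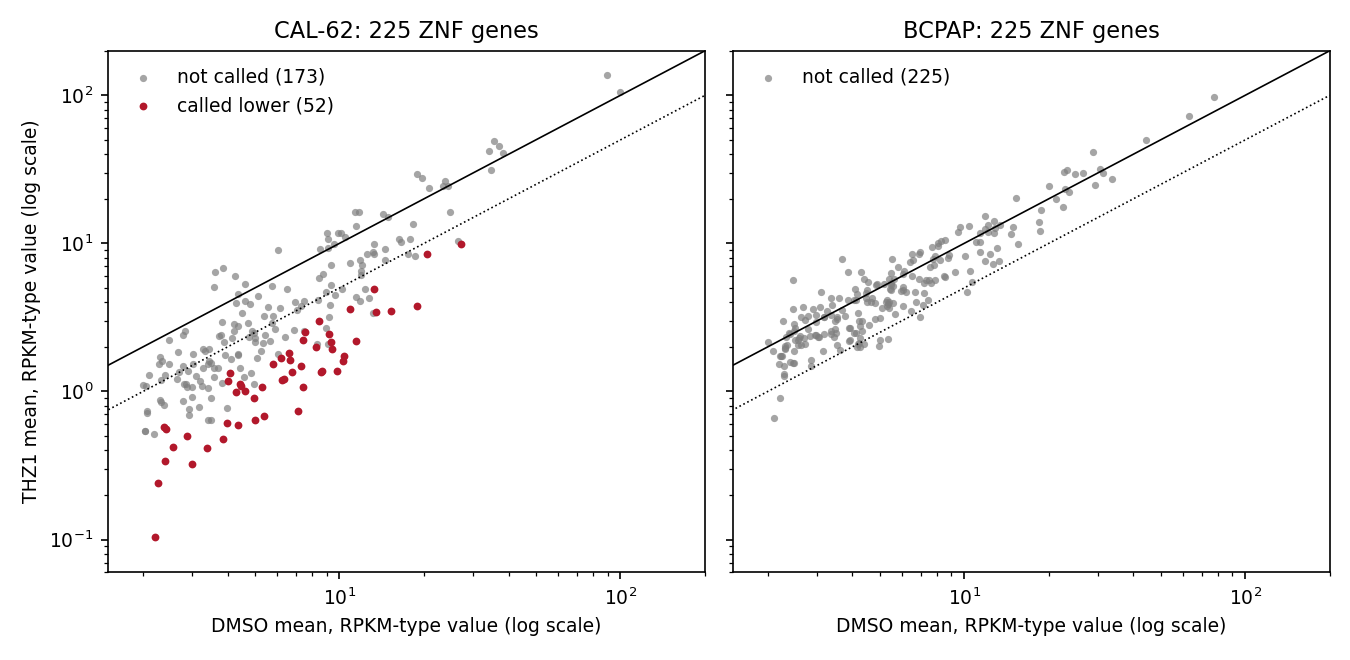
Mean value with THZ1 (vertical) against mean value with DMSO (horizontal) of the 225 ZNF genes in CAL-62 and BCPAP, both axes logarithmic, with 1 point per gene and n = 2 libraries per mean. The solid line marks equal values and the dotted line a THZ1 mean at 50% of the DMSO mean; in CAL-62 the 52 genes called lower (red) all lie below the dotted line, and in BCPAP 11 genes do, of which none was called.

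**Figure D2:**
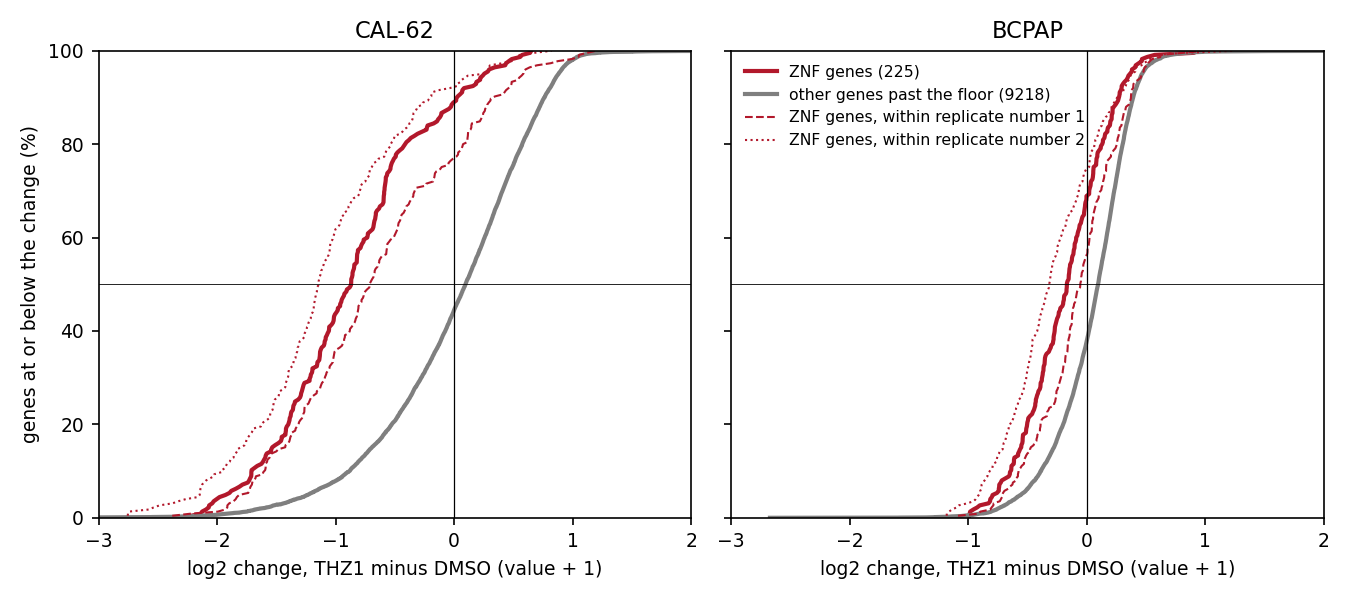
Cumulative share of genes (vertical, percent) at or below a log2 change, THZ1 minus DMSO (horizontal), for the ZNF genes (red) and the 9218 other genes past the same DMSO floors (grey) in each line. Dashed and dotted lines give the ZNF genes within replicate numbers 1 and 2; in CAL-62 both lie left of the other genes, and in BCPAP the shift is smaller, with medians of -0.05 and -0.32 within the numbers.

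The largest called fall in CAL-62 was that of ZNF187, a SCAN protein now named ZSCAN26 on chromosome 6. ZNF187 had values of 0.694 and 0.778 (27 and 41 reads) with THZ1 and 7.81 and 6.42 (475 and 426 reads) with DMSO, a change of -2.22 (SE 0.21, adjusted p = 0.012). ZNF48 on chromosome 16 had 1.53 and 1.23 with THZ1 and 7.22 and 12.3 with DMSO (change -2.14, SE 0.28, adjusted p = 0.0166). In both genes the groups lay far apart, with the DMSO libraries of ZNF48 differing most among themselves.

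ZNF7, a KRAB protein, and ZNF623 followed. ZNF7 had 2.61 and 0.879 with THZ1 and 10.9 and 9.9 with DMSO (change -2.13, adjusted p = 0.033), and ZNF623 had 1.78 and 1.41 with THZ1 and 8.04 and 12.5 with DMSO (change -2.09, adjusted p = 0.0166). ZNF672 on chromosome 1 had 4.44 and 3.10 with THZ1 and 18.1 and 19.6 with DMSO (change -2.07, adjusted p = 0.0165). Of the 10 genes with the largest called falls, ZNF672 was the most expressed under DMSO.

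ZNF281 on chromosome 1 encodes a factor known for roles in stem cell pluripotency and in epithelial-mesenchymal transition. Its values were 3.37 and 1.00 with THZ1 and 10.5 and 12.4 with DMSO (change -2.07, SE 0.39, adjusted p = 0.0342). ZNF133, a KRAB repressor on chromosome 20, had 1.36 and 0.769 with THZ1 and 6.71 and 8.18 with DMSO (change -2.04, adjusted p = 0.0165). THZ1 replicate 2 was the lowest library for both.

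ZNF202, which carries SCAN and KRAB domains and is known as a repressor of lipid metabolism genes, had 1.38 and 1.33 with THZ1 and 7.95 and 9.30 with DMSO (change -2.03, adjusted p = 0.0166). The SCAN protein ZNF232 had 1.05 and 1.70 with THZ1 and 6.62 and 10.7 with DMSO (change -2.0, adjusted p = 0.0183). ZNF830, a nuclear protein found in splicing complexes, had 3.23 and 0.646 with THZ1 and 8.78 and 10.1 with DMSO (change -1.98, SE 0.41, adjusted p = 0.0427). The THZ1 libraries of ZNF830 differed more from each other than those of the other 9, with 74 and 20 reads, yet both lay under both DMSO libraries.

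**Figure D3:**
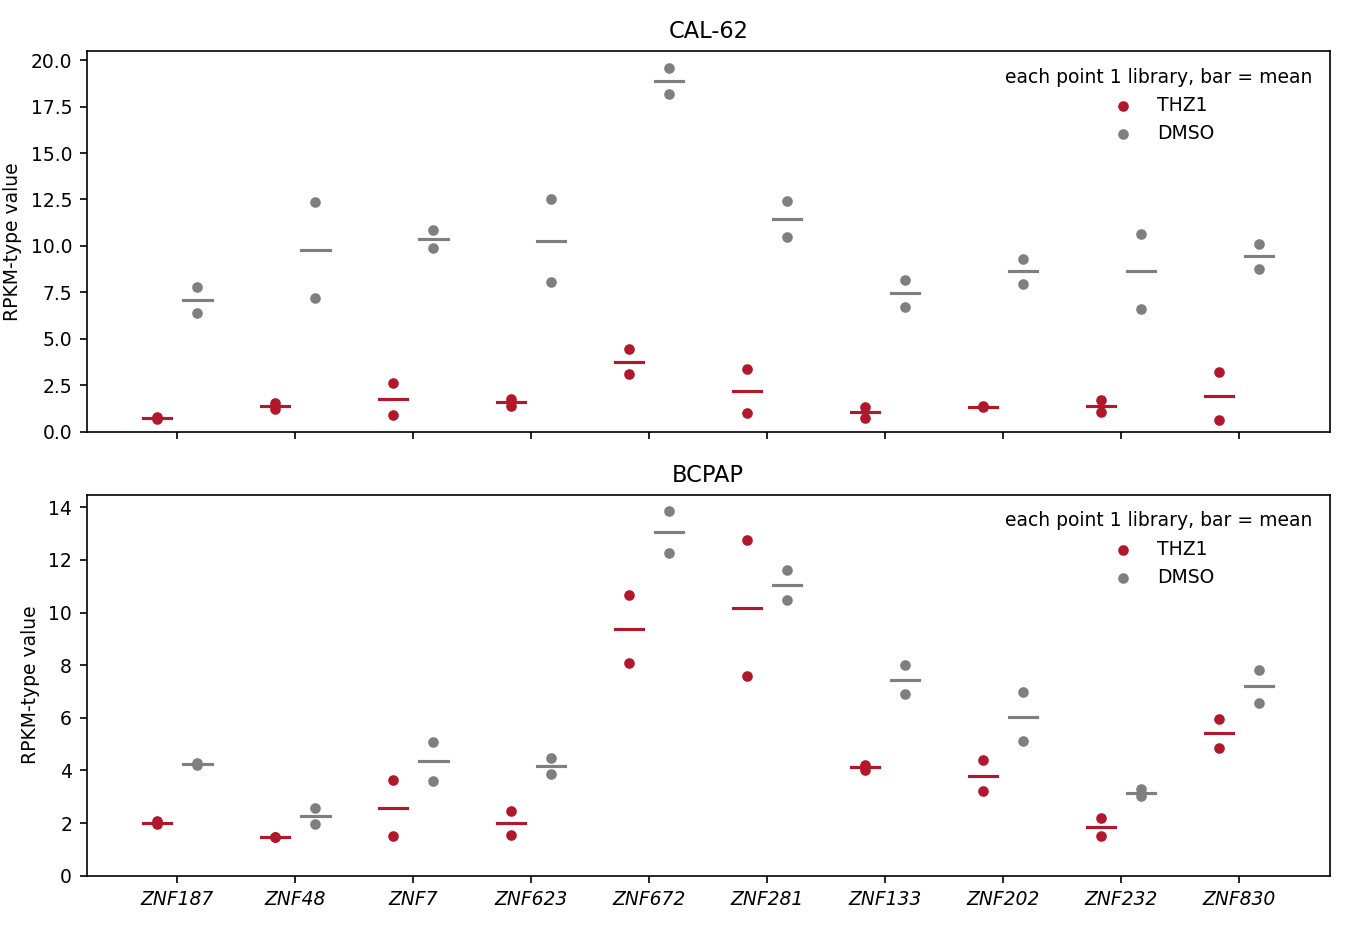
RPKM-type values in every library of the 10 ZNF genes with the largest called falls in CAL-62, with THZ1 (red) left of DMSO (grey), 1 point per library and the mean of n = 2 as a bar. In CAL-62 the THZ1 points lie under the DMSO points for all 10; in BCPAP they also do for 8 of them, but overlap for ZNF7 and ZNF281.

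The smallest fall among the 52 called genes was -1.10, and all 52 had a negative change within both replicate numbers. The ZNF genes had a median of 135 and 116 reads in the THZ1 libraries of CAL-62, against 401 and 481 in its DMSO libraries. The lowest was ZNF691, a C2H2 protein, with 4 and 2 reads with THZ1 and 97 and 94 with DMSO (change -1.54, adjusted p = 0.0279). Many ZNF genes lie in families of close copies, the handling of reads that match several copies and the strand setting are not stated in the sources, so the values of close copies and of genes with antisense partners are uncertain.

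Promoter sequences of 3 of the called genes and of the most expressed ZNF gene, ZNF207, are given as RefSeq has them on GRCh38.p14, from 250 bases before to 50 after the annotated start, on the gene's strand. The 3 called genes were picked by a window that holds CCGGAA or ACTACAA on either strand. They had the largest called falls among such genes, outside a chromosome not shown here. Larger called falls without such a window were passed over. ZNF207 was picked by its level, so the words in its window cannot be set against those of the 3. ZNF48 is at chr16:30378062-30378361 (plus strand), ZNF202 at chr11:123741611-123741910 (minus strand), ZNF302 at chr19:34677428-34677727 (plus strand) and ZNF207 at chr17:32349907-32350206 (plus strand). Capitals mark CCGGAA (the core that ETS factors bind), its reverse complement TTCCGG, or TGCGCA (the core of the NRF1 site).
ZNF48: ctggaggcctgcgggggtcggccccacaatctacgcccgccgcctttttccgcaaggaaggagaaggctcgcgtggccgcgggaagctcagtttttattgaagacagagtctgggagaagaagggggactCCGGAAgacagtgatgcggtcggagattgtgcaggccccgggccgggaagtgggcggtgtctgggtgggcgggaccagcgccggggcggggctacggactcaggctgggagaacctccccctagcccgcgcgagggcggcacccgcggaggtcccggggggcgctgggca
ZNF202: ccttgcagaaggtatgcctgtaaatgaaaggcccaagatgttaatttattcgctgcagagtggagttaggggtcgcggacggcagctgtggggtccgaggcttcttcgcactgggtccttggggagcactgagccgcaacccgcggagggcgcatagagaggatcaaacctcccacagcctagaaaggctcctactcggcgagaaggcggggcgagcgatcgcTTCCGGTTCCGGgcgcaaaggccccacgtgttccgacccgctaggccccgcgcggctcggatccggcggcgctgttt
ZNF302: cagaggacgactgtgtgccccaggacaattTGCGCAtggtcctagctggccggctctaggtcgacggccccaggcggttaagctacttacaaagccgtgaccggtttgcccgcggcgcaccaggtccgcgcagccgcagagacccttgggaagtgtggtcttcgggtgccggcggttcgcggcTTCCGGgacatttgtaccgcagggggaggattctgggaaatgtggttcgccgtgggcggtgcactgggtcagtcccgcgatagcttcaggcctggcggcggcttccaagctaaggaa
ZNF207: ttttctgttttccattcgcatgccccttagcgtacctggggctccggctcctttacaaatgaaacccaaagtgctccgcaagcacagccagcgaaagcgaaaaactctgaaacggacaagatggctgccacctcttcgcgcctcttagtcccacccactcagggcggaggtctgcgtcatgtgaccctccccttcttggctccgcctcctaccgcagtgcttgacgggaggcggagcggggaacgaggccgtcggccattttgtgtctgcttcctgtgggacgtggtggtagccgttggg
The ZNF202 window holds TTCCGG 2 times in direct succession, ZNF302 holds TGCGCA and TTCCGG, and ZNF207 holds none of the words searched. ZNF302, a KRAB protein, had 2.15 and 0.836 with THZ1 and 7.47 and 7.14 with DMSO in CAL-62 (change -1.79, adjusted p = 0.0333).

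Windows were matched for 196 of the 225 genes. CCGGAA on either strand was in 52.0% of them, against 33.4% of the windows of listed genes and 17.6% of all 27305 windows. ACTACAA, part of the site of ZNF143, was in 9.69%, against 4.27% and 2.95%. TGCGCA was in 14.3%, against 14.8% and 8.42%, and TATAAA, the TATA box, in 3.06%, against 4.55% and 12%. A match is a description of the letters and was not tested as a site. CCGGAA was the word most of them shared. The median change in CAL-62 was -0.92 in the 102 genes with CCGGAA, of which 26 were called lower (25.5%). In the 94 without it the median was -0.87, and 21 were called lower (22.3%). Over all genes tested 4.04% were. The median change was -1.11 in the 28 with TGCGCA and -0.60 in the 19 with ACTACAA.

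A KRAB domain was found in 113 of the 220 genes with a translated protein, a SCAN domain in 19 and both in 12. Fingers were counted with a final histidine or cysteine. Their number ran up to 35 in ZNF142, with a median of 12 in KRAB proteins and 7 in the others. With a final histidine only, the most in any gene was 31. In CAL-62 the 113 KRAB genes had a median change of -0.94, with 109 negative and 25 called lower (22.1%). In 0 of them both THZ1 libraries lay above both DMSO libraries, where 29.7% of listed genes did. The 107 without KRAB had a median of -0.77, with 86 negative and 27 called lower (25.2%). Over all genes tested, 4.04% were called lower and 48.2% were negative. No test of the difference between these subgroups was run. Like the count of 52, the counts called in these and the following subgroups were 0 without either DMSO library of CAL-62 or with CAL-62 fitted alone.

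The SCAN genes had a median of -1.13, with 18 negative and 8 of 19 called lower (42.1%, against 4.04% of all genes tested). With a filter at a mean of 5 the median of the 8 that were left was -0.70 with 0 called, against -0.87 in 26 KRAB genes with 5 called. In the main setting the called ones were ZNF187, ZNF202, ZNF232, ZNF193, ZNF174, ZNF500, ZNF274 and ZNF498. The exception in sign was ZNF213, a SCAN and KRAB protein, with 12.2 and 11.4 with THZ1 and 8.03 and 11.7 with DMSO (change 0.26, adjusted p = 0.531).

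The 19 genes with at most 2 classical fingers had a median change of -0.02, with 10 negative. Of the 19, 3 were called lower (ZNF830, ZNF839 and ZNF609), or 15.8%, against 4.04% of all genes tested. The median was -1.01 in the 58 with 3 to 7 fingers, -0.88 in the 79 with 8 to 12 and -0.93 in the 64 with 13 or more. In the same order, 34.5%, 20.3% and 20.3% of these were called lower. The median DMSO level in CAL-62 was higher in the 19 than in each class with more fingers. Finger number is therefore mixed with level, and their parts were not tested apart. With fingers that end in histidine only, 20 genes had at most 2, with a median of -0.065, 11 negative and 3 called lower. The median of the 19 was -0.92 with ribosomal protein genes as the scaling reference and -0.98 with mitochondrial ones, settings that shift all genes down, and relative to the genes past the floors it lay between -0.16 and -0.07 in all settings. ZNF185, a LIM domain protein of the actin cytoskeleton, ZNF259 (ZPR1) and ZNF428 in this set had both THZ1 libraries above both DMSO libraries, without a call. Of all listed genes, 29.7% lay above in this way.

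The ZNF genes were concentrated on chromosome 19, which held 32.9% of them and 5.73% of the other genes past the floors. Their median change was -0.89 on chromosome 19 (12 of 74 called lower, 16.2%) and -0.87 elsewhere (40 of 151, 26.5%). Over all genes tested 4.04% were called lower. In 3 equal bins of DMSO level it was -0.91, -1.13 and -0.69 from low to high, and in 3 bins of transcript length -0.87, -1.01 and -0.81 from short to long.

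**Figure D4:**
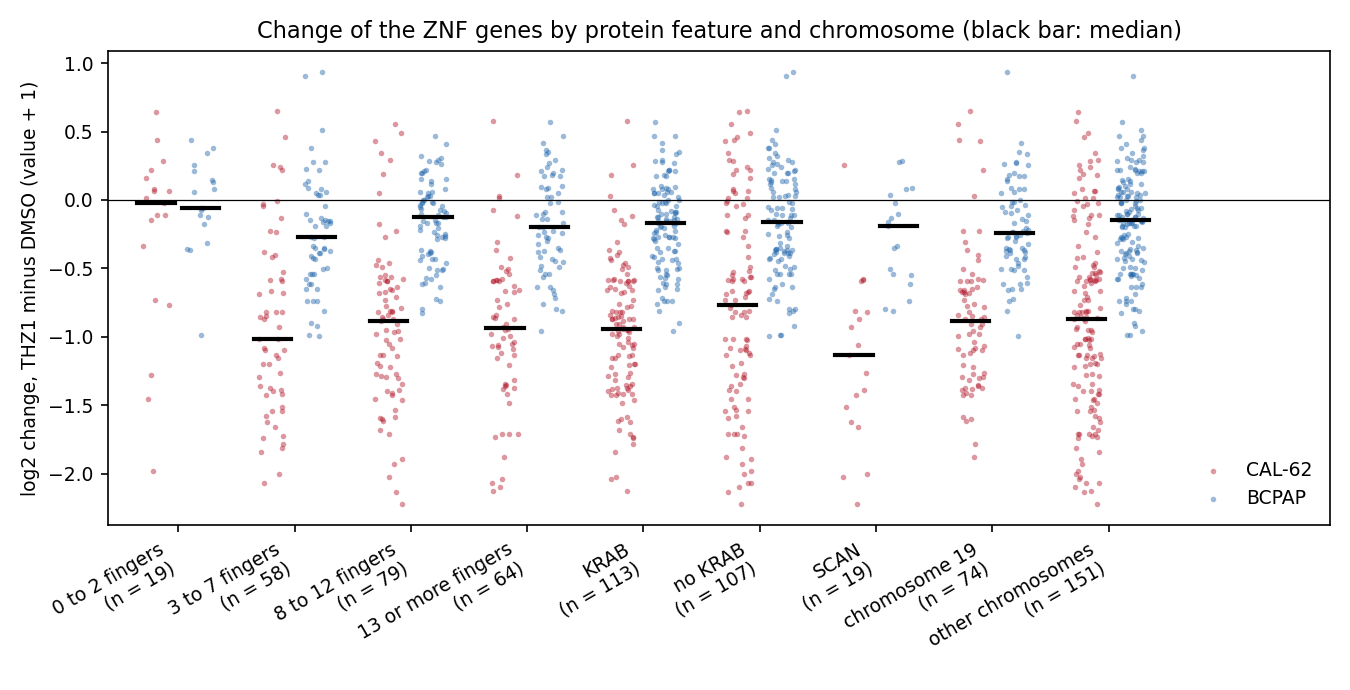
Log2 change, THZ1 minus DMSO, of each ZNF gene in CAL-62 (red) and BCPAP (blue) by the number of fingers (final histidine or cysteine), domain and chromosome. Each point is 1 gene and the black bar is the median. The group with 0 to 2 fingers has a median of -0.02 in CAL-62, against -1.01 to -0.88 in the groups with more.

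By role, the 9 listed ZNF proteins of RNA, ribosomes and splicing were mixed in CAL-62, with a median of -0.01. Called lower were 2 of them (22.2%, against 4.04% of all genes tested), ZNF830 and ZNF346. ZNF346 (JAZ), which binds double-stranded RNA, had 1.81 and 1.46 with THZ1 and 6.10 and 7.29 with DMSO (change -1.55, adjusted p = 0.02). The most expressed of the 9 were not called. ZNF207 (BuGZ), which loads BUB3 onto kinetochores, had 115 and 95.7 with THZ1 and 106 and 94.0 with DMSO (change 0.07, SE 0.22, adjusted p = 0.855).

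ZNF598, the ubiquitin ligase that marks collided ribosomes, had 29.8 and 33.0 with THZ1 and 27.5 and 41.6 with DMSO (change -0.11, adjusted p = 0.794). ZNF593, whose yeast counterpart takes part in export of the large ribosomal subunit, had 32.7 and 50.8 with THZ1 and 26.8 and 41.4 with DMSO (change 0.28, adjusted p = 0.584). For ZNF207, ZNF598 and ZNF593 the groups overlapped, and the small changes of ZNF207 and ZNF593 turned negative with some scalings or without single libraries. ZNF259 (ZPR1), which binds elongation factor eEF1A, had 26.4 and 26.7 with THZ1 and 25.8 and 21.7 with DMSO (change 0.16, adjusted p = 0.691), and its change too was negative with 4 other scalings.

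Among 19 activators and chromatin partners, 16 were negative in CAL-62, with a median of -0.71. Called lower were 2 of them (10.5%, against 4.04% of all genes tested), ZNF281 and ZNF687. ZNF687, which works with ZNF592 and ZMYND8, had 2.17 and 2.88 with THZ1 and 6.86 and 8.18 with DMSO (change -1.28, adjusted p = 0.038). ZNF592 itself had 26.7 and 20.9 with THZ1 and 17.4 and 24.3 with DMSO (change 0.19, adjusted p = 0.614), with overlap. ZNF384, ZNF131 and ZNF395, the most expressed of those never called, changed by -0.58, -0.66 and 0.07 (adjusted p = 0.169, 0.253 and 0.913), and the last value was negative with 4 other scalings.

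All 9 genes on the list headed KRAB repressors of repeats and imprints had a negative change in CAL-62, with a median of -0.96. Called lower were 2 of them (22.2%, against 4.04% of all genes tested), ZNF202 and ZNF274. That list is broader than its heading, as ZNF202 and ZNF675 on it are described here by other roles. ZNF274, which binds the ends of other ZNF genes and recruits SETDB1 there, had 3.73 and 2.30 with THZ1 and 8.54 and 8.42 with DMSO (change -1.26, SE 0.26, adjusted p = 0.0429). ZNF445, which protects imprinted regions, had 1.10 and 0.741 with THZ1 and 2.75 and 3.23 with DMSO (change -1.06, adjusted p = 0.0537), no overlap but no call. ZNF263, ZNF195 and ZNF587 changed by -0.59, -0.96 and -0.79 without a call (adjusted p = 0.297, 0.101 and 0.275).

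The list of 24 corepressor genes is broader than the partners through which KRAB proteins silence, as it also holds ZMYND8, TRIM24 and TRIM33. Of the 24, 1 was called lower and 1 higher in CAL-62, where 4.04% and 0.581% of all genes tested were. Both calls were lost without any single DMSO library of either line, without either CAL-62 THZ1 library and with CAL-62 fitted alone. The change was negative in 10 of the 24, where 48.2% of all genes tested were negative, and the median was 0.23; the median was negative with the sum of reads, ribosomal protein or mitochondrial genes as the scaling (-0.13, -0.59 and -0.68). SETDB1 had 1.88 and 1.40 with THZ1 and 5.63 and 4.86 with DMSO (change -1.24, adjusted p = 0.032). HDAC1, a deacetylase of the NuRD complex, had 112 and 107 with THZ1 and 52.5 and 53.0 with DMSO (change 1.04, adjusted p = 0.0365), a value that was -0.014 with mitochondrial genes as the reference. TRIM28, named here because KRAB acts through it, had 371 and 325 with THZ1 and 213 and 180 with DMSO (change 0.82, adjusted p = 0.0716), without a call.

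The largest positive changes in CAL-62 among ZNF genes without overlap were not called. ZNF580 had 26.04 and 33.2 with THZ1 and 14.4 and 23.4 with DMSO (change 0.65, adjusted p = 0.508). ZNF185 had 152 and 123 with THZ1 and 110 and 69.3 with DMSO (change 0.64, adjusted p = 0.149). ZNF511 had 23.9 and 31.4 with THZ1 and 20.0 and 19.3 with DMSO (change 0.46, adjusted p = 0.23). All 3 changes were negative with ribosomal protein or mitochondrial genes as the scaling reference.

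The 41 ZBTB, ZSCAN, ZKSCAN and ZFP genes past the same floors, also zinc finger factors, had a median change of -0.85 in CAL-62, with 10 called lower (24.4%), 0 called higher and 35 negative. The difference between the sets was not tested.

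In BCPAP, 0 of the 225 ZNF genes were called, as were 0% of all 11743 genes tested; with limma-voom on recovered reads the count was also 0. At an unadjusted p under 0.05 there were 24 ZNF genes, each lower, where 4.01% of all genes tested passed. The median ZNF level was 4.16 with THZ1 and 4.97 with DMSO, the median change was -0.17, and 155 genes were negative, where 41.4% of all genes tested were. The median change of the genes past the same floors was 0.09. Within replicate numbers 1 and 2 the ZNF median was -0.05 and -0.32, and without THZ1 replicate 2 it was -0.0065, which rests most of the BCPAP shift on that library. In 71 ZNF genes both THZ1 libraries lay below both DMSO libraries and in 28 above, where 17% and 21.6% of listed genes did.

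The 3 largest falls without overlap in BCPAP, none called, were about equal. ZNF414 had 3.55 and 5.90 with THZ1 and 8.66 and 11.9 with DMSO (change -0.99, SE 0.38, adjusted p = 0.932). ZNF691 had 3.0 and 1.53 with THZ1 and 6.04 and 4.67 with DMSO (change -0.99, SE 0.27). ZNF839 had 2.28 and 1.77 with THZ1 and 4.66 and 5.28 with DMSO (change -0.98, SE 0.29). Of these, ZNF691 and ZNF839 were also among those called lower in CAL-62.

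The largest positive changes in BCPAP were those of ZNF296, with 4.57 and 6.80 with THZ1 and 2.61 and 2.30 with DMSO (change 0.93, SE 0.46), and of ZNF654, with 9.07 and 6.52 with THZ1 and 4.07 and 3.26 with DMSO (change 0.91, SE 0.51). ZNF721, a KRAB protein with 23 fingers, had 7.83 and 4.90 with THZ1 and 4.03 and 3.68 with DMSO (change 0.57, SE 0.49). In CAL-62 these 3 behaved alike: THZ1 replicate 1 was above both DMSO libraries and replicate 2 below them, as in ZNF654 with 14.6 and 3.47 with THZ1 and 5.79 and 6.34 with DMSO.

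The CAL-62 and BCPAP comparisons share no library in their means, but the spread behind the calls was estimated from all 8 libraries. Of the 52 ZNF genes called lower in CAL-62, 50 also had a negative change in BCPAP, 44 of them within both replicate numbers, and their median BCPAP change was -0.50. Among the other 173 the BCPAP median was -0.09, with 105 negative. The exceptions among the 52 were ZNF436 and ZNF639, at 0.05 and 0.29 in BCPAP, named after their values were seen. Across the 225 genes the changes in the lines had r = 0.65, and across all genes past the floors r = 0.68. Genes are not independent replicates. In BCPAP 41.4% of all genes tested had a negative change. How many of all genes called lower in CAL-62 were negative in BCPAP was not counted. The agreement is therefore not shown to be particular to the ZNF genes.

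The difference of the responses, CAL-62 minus BCPAP, had a median of -0.67 over the ZNF genes, with 206 of 225 negative, where 50.8% of all genes tested were. None was called, as 0% of 10653 genes were in limma and 0 ZNF genes with limma-voom. At an unadjusted p under 0.05 there were 60 ZNF genes, each more negative in CAL-62, where 5.28% of all genes tested passed; the smallest adjusted p of a ZNF gene was 0.834. A larger response of single ZNF genes in CAL-62 is therefore not shown.

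The largest differences, among genes whose changes within the replicate numbers did not overlap between the lines, were those of ZNF322A, ZNF281 and ZNF48. ZNF322A (ZNF322) had 3.55 and 0.612 with THZ1 and 8.34 and 9.88 with DMSO in CAL-62, and 3.80 and 2.66 with THZ1 and 2.42 and 3.15 with DMSO in BCPAP (difference -2.05, SE 0.64, adjusted p = 0.834). ZNF281 had 12.7 and 7.60 with THZ1 and 11.6 and 10.5 with DMSO in BCPAP, where the groups overlapped, and its difference was -1.92 (SE 0.56). ZNF48 was low in BCPAP, with 1.49 and 1.47 with THZ1 and 1.97 and 2.59 with DMSO, and its difference was -1.74 (SE 0.40). The largest positive differences were smaller, at 0.58 for ZNF185, 0.48 for ZNF358 and 0.47 for ZNF219 (adjusted p = 0.843, 0.92 and 0.934), and each was negative with ribosomal protein or mitochondrial genes as the reference.

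Between the THZ1-treated lines, a comparison of libraries that the choice of genes did not use, 58 ZNF genes were called lower in CAL-62 than in BCPAP and 7 higher. Over all 10653 genes tested, 14.3% were called lower and 11% higher. In all 184 ZNF genes were lower, where 54.1% of all genes tested were. The median ZNF difference was -0.61, and that of the genes past the floors -0.06. Under DMSO, which chose the genes, the means were higher in CAL-62 for 127 ZNF genes and lower for 98, with a median difference of 0.11. Of the 58, 25 were also called lower with THZ1 within CAL-62, and 15 had a higher DMSO mean in CAL-62 than in BCPAP; this comparison shares its CAL-62 THZ1 libraries with the comparison within CAL-62. The counts were 11 lower and 1 higher without BCPAP THZ1 replicate 1, and 29 and 7 without CAL-62 THZ1 replicate 2. The count of 65 in either direction was 27 with ribosomal protein genes, 18 with mitochondrial genes and 29 with a filter at a mean of 5.

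The gene furthest lower in CAL-62 was ZNF697, with 1.54 and 0.642 in THZ1-treated CAL-62 and 11.8 and 7.40 in THZ1-treated BCPAP (difference -2.34, SE 0.33, adjusted p = 0.00392). Its DMSO values were also apart, at 1.62 and 2.49 in CAL-62 and 8.86 and 7.27 in BCPAP. ZNF217, a transcriptional regulator amplified in several carcinomas, had 10.8 and 2.35 in THZ1-treated CAL-62 and 33.1 and 25.4 in THZ1-treated BCPAP (difference -2.26, SE 0.52, adjusted p = 0.0193). ZNF703, a transcriptional cofactor known from luminal breast cancer, had 1.37 and 0.886 in THZ1-treated CAL-62 and 7.88 and 8.90 in THZ1-treated BCPAP (difference -2.15, adjusted p = 0.00893). For all 3 the DMSO libraries of the lines differed in the same direction.

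The KRAB genes ZNF45 and ZNF266 differed by -2.06 and -2.02 (adjusted p = 0.0028 and 0.00595). ZNF45 had 0.965 and 1.27 in THZ1-treated CAL-62 and 9.67 and 6.29 in THZ1-treated BCPAP, and was also called lower with THZ1 within CAL-62 (change -1.36, adjusted p = 0.0342). ZNF134, ZNF788 (now annotated as the pseudogene ZNF788P), ZNF281, ZNF239 and ZNF589 followed, with differences from -1.96 to -1.78. ZNF281 was the one of these whose DMSO levels were close in the lines, at 10.5 and 12.4 in CAL-62 and 11.6 and 10.5 in BCPAP, and had 3.37 and 1.00 in THZ1-treated CAL-62 and 12.7 and 7.60 in THZ1-treated BCPAP (difference -1.88, adjusted p = 0.0145).

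From the roles lists, ZNF346, ZNF274, ZNF202, ZNF445 and ZNF675 were called lower as well, with differences of -1.10, -0.91, -1.02, -1.03 and -1.61 (adjusted p = 0.0149, 0.0398, 0.0245, 0.0232 and 0.0404). ZNF675, a KRAB protein that restrains TRAF6 signalling, had 3.02 and 0.557 in THZ1-treated CAL-62 and 9.03 and 4.83 in THZ1-treated BCPAP. ZNF185 led the higher ones, with 152 and 123 in THZ1-treated CAL-62 and 28.9 and 34.5 in THZ1-treated BCPAP (difference 2.08, SE 0.26, adjusted p = 0.00278). It was followed by ZNF768 at 1.51, ZNF213 at 1.19, ZNF428 at 0.87 and ZNF592 at 0.81 (adjusted p = 0.00821, 0.0159, 0.0208 and 0.0395), and all 7 called higher also had higher DMSO means in CAL-62; the differences of ZNF428 and ZNF592 were negative with mitochondrial genes as the reference.

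**Figure D5:**
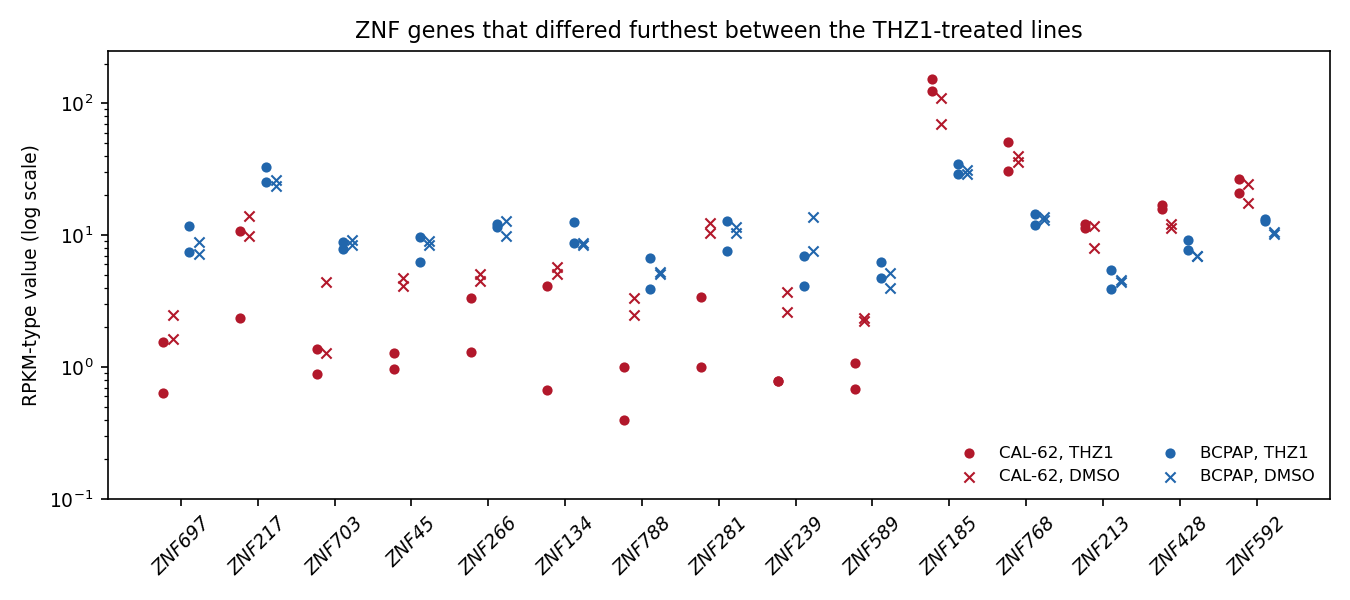
RPKM-type values (vertical, log scale) in every library of the 15 ZNF genes furthest apart between the THZ1-treated lines, with CAL-62 (red) left of BCPAP (blue), circles for THZ1 and crosses for DMSO. The 10 genes at left were called lower in THZ1-treated CAL-62 and the 5 at right higher; ZNF281 differed by -1.88 between the THZ1 circles while its DMSO crosses lay side by side.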

How the data were processed

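Poly(A)-selected RNA was sequenced from 8 libraries. The authors' deposited files give 1 RPKM-type value per gene and library; the unit was inferred from the values. Bowtie2, DESeq2 and hg19 appear, per the submitters' processing notes, without roles or versions. Annotation, strand setting and treatment of multiply matching reads were not given in the sources used here. Whole reads were recovered from the values (12715 of 12715 genes within 0.02 reads) and used for depth and for limma-voom.

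The main test was limma 3.58.1 in R 4.3.3, with a trended variance prior, on log2(value + 1), genes with a mean of at least 1, a mean per group, two-sided, Benjamini-Hochberg over all genes tested, called at an adjusted p under 0.05; it was first tested on simulated data. Scripts used Python 3.11.15 and pandas 2.3.3. KRAB and SCAN domains (pyhmmer 0.12.3 profiles aligned with MAFFT 7.526, E-value at most 0.0001) and fingers (2 cysteines with 2 to 4 residues between them, 12 residues, a histidine and, after 3 to 5 residues, a histidine or cysteine) were found in GENCODE 29 translations, in place of the RefSeq proteins, letter patterns for the domains and final histidine first planned (the last moves 5 of 220 genes to another class of finger number); 5 genes had no translation. Chromosomes, current symbols and promoters came from RefSeq GRCh38.p14, which is not the build of the files.

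Named genes followed a fixed rule: per comparison the 10 largest called falls and 5 largest called rises without overlap, or the 3 largest uncalled ones where fewer than 3 were called; the 5 most expressed; called genes of the roles and corepressor lists, with up to 3 uncalled ones per roles list; and 3 on each side of the floor. The genes, lists and rule were chosen with earlier results of these data known. Alternatives were other pseudocounts, filters, scalings, fits and floors, a replicate block, and leaving out each library.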

Additional observations from a re-analysis of the deposited data

How the results depend on the processing

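Counts of called ZNF genes in CAL-62 (52) changed most with scaling and with how the spread was estimated. The count was 83 with upper-quartile scaling, 119 with the sum of recovered reads, 163 with ribosomal protein genes and 34 with mitochondrially encoded genes as the reference. It was 11 with a filter at a mean of 5, 18 of 84 genes with a DMSO mean of at least 5 in each line, 0 with the line's own 4 libraries, and 0 to 61 over fits that each left out 1 library. The median change (-0.87) was -1.20 with a pseudocount of 0.1, -1.20 with the sum of recovered reads, -1.59 with ribosomal protein genes, -1.57 with mitochondrial genes and -1.29 with limma-voom, and -1.12 to -0.67 without single libraries. These scalings also moved the median of all genes past the floors, to -0.31 with the sum of reads, -0.10 with upper quartile, -0.79 with ribosomal protein genes and -0.84 with mitochondrial genes; relative to it the ZNF median was -0.89, -0.92, -0.80 and -0.73, against -0.95 in the main setting. The median in BCPAP (-0.17) was -0.52 with mitochondrial genes and -0.35 to -0.0065 without single libraries. Counts in BCPAP and for the difference of the responses were 0 in every setting run. Between the THZ1-treated lines the count (65) was 29 with the filter at 5, 27 with ribosomal protein genes, 18 with mitochondrial genes, 23 with a DMSO mean of at least 5, and 12 to 81 without single libraries. With the replicate number as a block (replicate block), 143 ZNF genes were called in CAL-62, 141 lower and 2 higher, and 122 between the THZ1-treated lines, 108 lower and 14 higher. Same-numbered libraries deviated together, with r = 0.78 in BCPAP and 0.46 in CAL-62. A principal component with 15.2% of the variance was positive in every replicate 1 and negative in every replicate 2, in both lines. The main fit did not take this into account. The labels do not say what a number marks, and each line has only 2 pairs. None of the 35 named calls was lost under the block. Of the 24 corepressor genes 3 were then called lower and 10 higher in CAL-62. The share of all genes called under the block was not counted, so none of these block counts has a background beside it. The cause of these shifts was not tested. Reversed values in CAL-62 were, with upper-quartile scaling, -0.13 for ZNF207, -0.038 for ZNF259 and -0.12 for ZNF395. With the sum of reads they were -0.36 for ZNF207, -0.25 for ZNF259, -0.32 for ZNF395 and -0.13 for ZNF593. With ribosomal protein genes they were -0.32 for ZNF185, -0.89 for ZNF207, -0.78 for ZNF259, -0.82 for ZNF395, -0.47 for ZNF511, -0.28 for ZNF580 and -0.66 for ZNF593. With mitochondrial genes they were -0.014 for HDAC1, -0.41 for ZNF185, -0.98 for ZNF207, -0.85 for ZNF259, -0.87 for ZNF395, -0.54 for ZNF511, -0.36 for ZNF580 and -0.74 for ZNF593. Reversed differences of the responses were -0.14, -0.22 and -0.23 for ZNF185, ZNF219 and ZNF358 with ribosomal protein genes, and -0.079, -0.16 and -0.16 with mitochondrial genes. Between the THZ1-treated lines ZNF428 was -0.046 and ZNF592 -0.14 with mitochondrial genes. Without single libraries, values that changed sign ran in CAL-62 from -0.061 to 0.20 for ZNF207, from -0.11 to 0.24 for ZNF395, from -0.026 to 0.60 for ZNF593 and from -0.40 to 0.18 for ZNF598, and as differences of the responses from -0.49 to 1.43 for ZNF219 and from -0.26 to 1.22 for ZNF358.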

Other observations

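ZNF genes left out by the level rule were also lower with THZ1 in CAL-62. Of the 105 listed for both lines under the DMSO floor, 93 were tested, and 15 were called lower and 0 higher (limma, adjusted p under 0.05), with 90 negative and a median change of -0.77. Over all 11362 genes tested in CAL-62, 4.04% were called lower and 48.2% were negative. In BCPAP 0 of these 93 ZNF genes were called, and 60 were negative with a median of -0.09, where 41.4% of all genes tested were negative. Low values of these ZNF genes make the log2(value + 1) changes small. Other genes under the floor were not counted apart, and low genes that rose with THZ1 could be missed by the DMSO floors.

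ZNF genes listed for a single line were also mostly negative. Of the 35 listed for CAL-62 only, 23 were tested, with 20 negative, a median change of -0.69 and 5 called lower. Over all genes tested in CAL-62, 48.2% were negative and 4.04% were called lower. The 5 called were ZNF114, ZNF879, ZNF620, ZNF662 and ZNF680, named after their values were seen, with changes of -1.49, -1.41, -1.33, -1.33 and -1.28. Of the 38 listed for BCPAP only, 32 were tested, with 24 negative, a median of -0.23 and 0 called. Over all genes tested in BCPAP, 41.4% were negative and 0% were called. Other genes listed for a single line were not counted apart.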
